A study of Mus musculus with 11 samples.

Results

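The genes described here encode 9 molecules that regulatory T cells (Tregs) use to suppress other immune cells or to aid tissue repair. They are the cytokine genes Il10 and Ebi3, the TGF-beta activation genes Lrrc32 and Itgb8, the surface and secreted suppressors Nrp1, Fgl2 and Klrg1, the repair factor gene Areg and the TNF-family ligand gene Tnfsf11. The members were chosen by gene symbol, and all 9 were found among the 14604 genes deposited and among the 13897 genes tested. None of them was used to sort the cells.

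A Treg suppresses in several ways. It secretes IL-10, which acts through a receptor and STAT3 on myeloid cells and T cells, and the EBI3 chain, which pairs with another subunit to form IL-35 or IL-27. It displays latent TGF-beta on GARP, the product of Lrrc32, and releases the active cytokine with the integrin that contains the beta 8 chain encoded by Itgb8. In tissues, Tregs also make amphiregulin, an EGF-family growth factor that supports repair of epithelium and muscle and that is known to be induced by IL-33 and IL-18. KLRG1 marks differentiated effector Tregs, and RANKL, encoded by Tnfsf11, is best known for driving osteoclast formation.

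Tregs were sorted as live cells positive for CD4, CD25 and GITR from grafted MC38 tumors, a mouse colon adenocarcinoma line, and from the spleens of tumor-bearing mice. Of the 11 libraries, 3 spleen and 3 tumor libraries came from CD177flox/flox mice, labelled WT, and 3 spleen and 2 tumor libraries came from CD177flox/flox/FOXP3-CreYFP mice, labelled KO. In the latter a Cre driven by Foxp3 acts on a floxed Cd177 gene in Tregs, and the floxed gene is shared by all mice. Since the deposited genes do not include Cd177, its level could not check these labels, which give neither an age nor a treatment. The study's methods say that spleens came from the same mice as the tumors, but no source ties a spleen library to a tumor library or says that the libraries of a group came from separate mice. The tests between tissues therefore treated libraries as independent, and p-values measure the spread between libraries.

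Levels are the authors' log2(n + 1) values, where n is an estimated count per gene symbol. Totals of n ran from 712832 to 844331 in spleen libraries and from 1103159 to 1304548 in tumor libraries. The study's methods give an approximate read depth per library, but the exact depth of each library is unknown. How n was scaled is not stated, so levels were compared between libraries within a gene and never between genes. Adding 1 before the logarithm shrinks the differences of genes with low values. Markers of other cells moved with the tissue. Beside the counts that follow, 43.1% of all tested genes were called higher in tumor libraries and 35.9% lower. All 17 tested myeloid markers were higher in tumor libraries, where their summed level lay between 13.79 and 14.42 against 8.30 to 9.22 in spleen, and 5 of 6 fibroblast markers were higher as well. Of 10 dendritic cell markers, 8 were called higher and none lower. With equal library totals those counts were 5 and 1. Of 18 T-cell lineage markers, 16 were lower in tumor libraries and none was higher. The 9 Treg identity markers split, with 3 called higher and 5 lower. Among them the Treg factor gene Foxp3 went from 6.35 ± 0.30 (SD, n = 6) to 5.50 ± 0.55 (SD, n = 5), whereas Tnfrsf4 rose by 1.34, Tnfrsf18 by 1.08 and Ctla4 by 0.57. This split depended on the scaling. Ctla4 turned to -0.29 with quantile normalization and to -0.056 with equal library totals. With libraries centred on T-cell lineage markers Foxp3 turned to 0.16, and 5 of the 9 were called higher and 1 lower. Of the mast cell, basophil and ILC2 markers, which bear on Areg, Cpa3, Mcpt4, Mcpt8, Fcer1a, Il5 and Il13 are not listed, and the summed level of the 3 tested was 2.27 to 3.58 in spleen and 2.28 to 3.72 in tumor. That sum hides opposite moves, since Kit rose by 1.63 and Ms4a2 fell by 1.66 (-1.66), while Gata2 did not pass the test. The part of these other cells in the results that follow was not tested, and with bulk samples fewer cells of a type and less RNA per cell cannot be told apart.

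The first question was which of the 9 genes differed between TI-Tregs and spleen Tregs. Areg, Fgl2, Il10, Klrg1 and Ebi3 rose in tumor libraries, by between 1.94 and 4.77 on the log2 scale. Lrrc32 fell by 0.54, a direction that turned to 0.47 when libraries were centred on T-cell lineage markers, and Tnfsf11, Itgb8 and Nrp1 did not pass the test. So 5 of 9 genes were called higher and 1 lower by limma at an adjusted p under 0.05, where 43.1% of all tested genes were called higher and 35.9% lower, 78.9% in all. The median difference of the 9 genes was 1.94, against 0.082 over all tested genes. In the 5 genes that rose, every tumor library lay above every spleen library, which held for 35.2% of all tested genes. The differences of 4 genes were called higher and reached at least 2, against 8.24% of tested genes, and those of 2 genes reached at least 4, against 1.72%. Scaling moved all genes together. The median difference over all tested genes was -0.16 with quantile normalization, -0.14 with median centring, -0.44 with equal library totals and 1.09 with libraries centred on the 18 T-cell lineage markers, and 42.1%, 43.7%, 29.6% and 93.2% of calls were then higher, against 54.5% as deposited. The 9 genes gave 5 higher and 2 lower, 5 and 1, 5 and 3, and 9 and 0 under these scalings in the same order. The 5 rises were called under every scaling, pseudocount, filter, correction and left-out library tried.

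**Figure D1:**
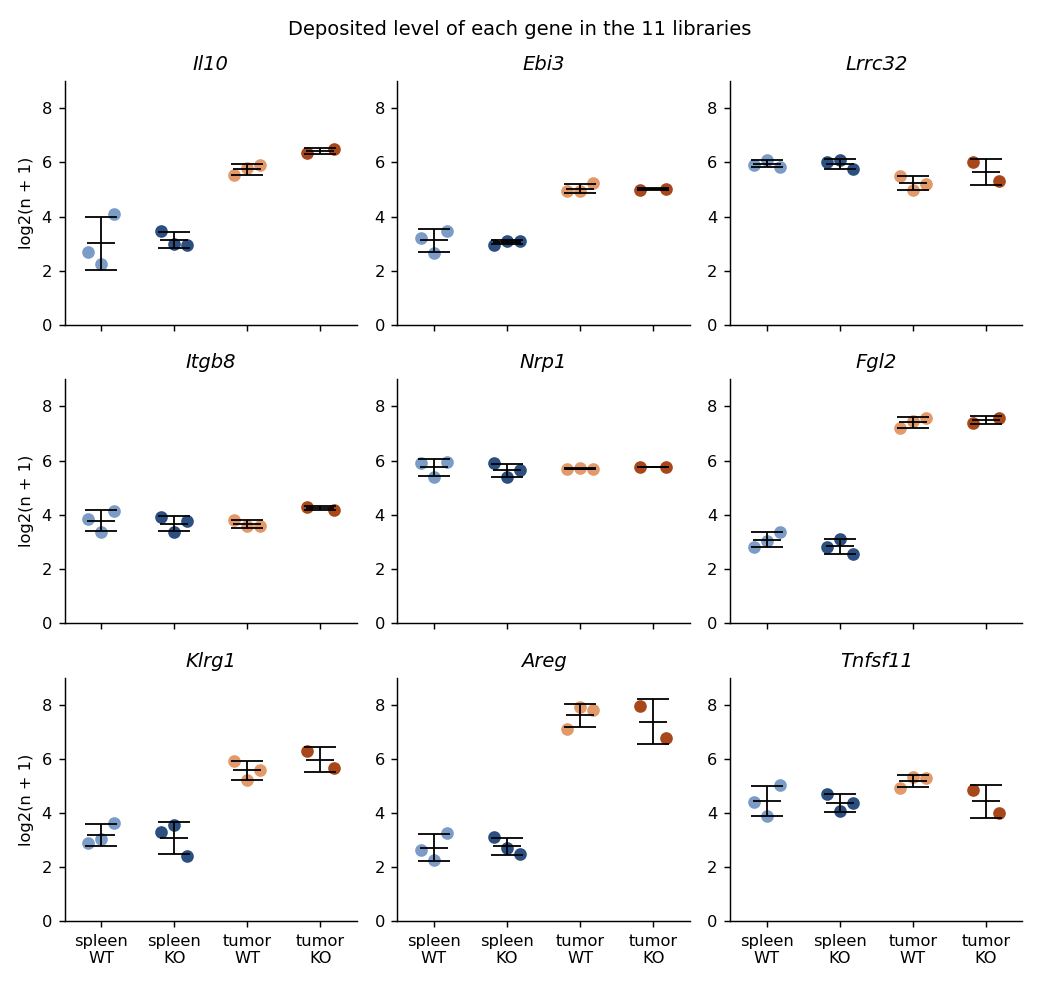
Log2(n + 1) of each of the 9 genes (y axis) in the 3 WT and 3 KO spleen libraries and the 3 WT and 2 KO tumor libraries (x axis); points are libraries, and bars give the mean and SD. Il10, Ebi3, Fgl2, Klrg1 and Areg show no overlap between tissues, while the tissues overlap for Lrrc32, Itgb8, Nrp1 and Tnfsf11.

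Il10 (GRCm38, chr1:131019845-131024974, plus strand, GENCODE release M21) encodes the suppressive cytokine IL-10. Its level in spleen libraries ran from 2.24 to 4.09 with a median of 2.96. In tumor libraries it was 5.52, 5.80 and 5.91 in WT mice and 6.34 and 6.50 in KO mice. The lowest tumor library thus lay above the highest spleen library. The difference was 2.95 ± 0.28 (SE; 95% interval 2.33 to 3.56), or 7.71-fold on the n + 1 scale, with an adjusted p of 7.04e-07 by limma and 0.0043 by an exact two-sided permutation test, the smallest value that 6 against 5 libraries can give.

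Around Il10, 8 of 11 genes of its receptor, signalling and regulation were called higher (43.1% of all tested genes) and 2 lower (35.9%). Their median difference was 1.01. Both receptor chains were higher, Il10ra by 1.35 and Il10rb by 1.01. Socs3, a feedback gene induced through STAT3, went from 6.56 ± 0.23 to 8.35 ± 0.46 (SD), and Stat3 itself rose by 0.90. Of the factors known to promote Il10 transcription, Prdm1, encoding Blimp-1, rose by 2.56, Maf by 1.41 and Ahr by 0.94, and so did Bhlhe40, known to repress Il10, by 2.26. Irf4 differed by 0.35 with an adjusted p of 0.057 by limma, and its direction flipped with equal library totals. The kinase genes Jak1 (-0.90) and Tyk2 (-0.21) fell, a direction that turned when libraries were centred on T-cell lineage markers.

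Ebi3 (chr17:55952640-55957022, plus strand) encodes the shared chain of IL-35 and IL-27. Its level ran from 2.67 to 3.47 in spleen libraries with a median of 3.11. The tumor libraries stood at 4.93, 4.94 and 5.23 in WT mice and 4.98 and 5.03 in KO mice. The 5 tumor libraries lay within a narrow range, and the lowest stood clear of every spleen library. The difference was 1.94 ± 0.12 (SE; 95% interval 1.67 to 2.20), a fold of 3.82 on the n + 1 scale, with an adjusted p of 1.37e-08 by limma. An exon of Gm16712 overlaps Ebi3 on the opposite strand, and 19.04% of the stretches of 31 bases in Ebi3 transcripts also occur there, so how reads were split between the pair is uncertain.

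The partner chains that EBI3 needs could not be followed, since Il12a and Il27 are not listed, and neither is Il12b. All 5 other genes of the group passed the test, as did 78.9% of all tested genes. Il23a was higher by 2.18, from a spleen level of 0.23 ± 0.082 (SD). The receptor genes moved apart. Il12rb2 rose by 1.74 and Il12rb1 by 0.54, whereas Il27ra, the specific chain of the IL-27 receptor, fell from 6.51 ± 0.043 to 4.85 ± 0.35 (SD), and Il6st, encoding the shared chain gp130, fell by 0.74. Of these, Il12rb1 turned lower (-0.063) with equal library totals and Il6st turned higher (0.27) with T-cell centring.

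Promoter windows of 250 bases ending just before the RefSeq start were given for 6 of the 9 genes (GRCm38.p6), with none used for Il10, Lrrc32 and Klrg1. They were searched on both strands for short letter patterns, none of which overlapped another in these windows. Of 32851 promoter windows of this length, 6.75% held an AP-1 pattern (TGANTCA), 1.55% a CRE pattern (TGACGTCA), 17.6% an NF-kB pattern (GGGA, any 4 bases, then CC), 3.17% a forkhead pattern (TGTTTAC), 6.02% an E-box (CACGTG), 9.99% a GATA pattern (AGATAA) and 12.4% a TATA pattern (TATAAA). A match describes letters, not a site in use, and positions are counted back from -1, the base before the start. Windows of genes that rose are shown because they belong to members with large differences, with matches in capitals. The Ebi3 window (chr17:55952373-55952622, plus strand) holds an NF-kB match at -44.
Ebi3: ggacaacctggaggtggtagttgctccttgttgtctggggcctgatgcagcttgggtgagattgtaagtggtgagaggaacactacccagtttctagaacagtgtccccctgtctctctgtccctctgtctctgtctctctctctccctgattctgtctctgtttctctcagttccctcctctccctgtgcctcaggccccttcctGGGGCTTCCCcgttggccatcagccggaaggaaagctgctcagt
The Areg window (chr5:91139349-91139598, plus strand) holds a CRE match at -61 and a TATA match at -31.
Areg: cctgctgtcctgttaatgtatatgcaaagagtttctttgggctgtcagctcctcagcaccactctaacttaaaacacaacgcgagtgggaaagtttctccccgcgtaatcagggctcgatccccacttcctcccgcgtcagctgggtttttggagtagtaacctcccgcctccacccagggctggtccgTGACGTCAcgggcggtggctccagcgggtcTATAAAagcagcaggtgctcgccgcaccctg
The Fgl2 window holds an AP-1 match at -16, shown with 8 bases on each side (chr5:21372649-21372671, plus strand), which GENCODE places inside the transcript.
Fgl2: agaacgccTGAGTCAggcggcgg
Among the genes that did not rise, the Tnfsf11 window holds an NF-kB match at -155 and a TATA match at -32, and the Itgb8 and Nrp1 windows hold none of these letters. By GENCODE, the Itgb8 and Nrp1 windows lie wholly within the gene, past its annotated start.

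Lrrc32 (chr7:98489283-98502181, plus strand) encodes GARP, which holds latent TGF-beta on the Treg surface. Its level in spleen libraries ran from 5.74 to 6.09 with a median of 5.96. The tumor values were 4.98, 5.21 and 5.50 in WT mice and 5.32 and 5.99 in KO mice. So 4 of 5 tumor libraries lay below every spleen library, and replicate 1 of the KO tumors lay among them. Lrrc32 fell by 0.54 ± 0.15 (SE; 95% interval -0.86 to -0.22), with an adjusted p of 0.0045 by limma and 0.017 by an exact two-sided permutation test. The call held with each library left out, by between -0.69 and -0.44. It was lost with Bonferroni correction, and with libraries centred on the T-cell lineage markers the direction turned, to 0.47 with an adjusted p of 0.0071 by limma.

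Itgb8 (chr12:119158022-119238802, minus strand) encodes the beta 8 integrin chain, which with the alpha V chain frees TGF-beta from its latent complex. In spleen libraries its level ran from 3.35 to 4.14 with a median of 3.80. Tumor libraries read 3.57, 3.57 and 3.82 in WT mice and 4.19 and 4.30 in KO mice. The WT tumor libraries lay inside the spleen range and the KO tumor libraries above it. The pooled difference was 0.16 ± 0.18 (SE; 95% interval -0.22 to 0.55) with an adjusted p of 0.41 by limma, and its sign depended on the scaling.

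The other genes of TGF-beta supply and release mostly rose. Of 14 tested, 12 were called higher (43.1% of all tested genes) and 1 lower (35.9%), with a median difference of 2.18. Tgfb1, the main Treg isoform, went from 6.36 ± 0.085 to 7.62 ± 0.086 (SD), and Tgfb3 rose by 2.64, while Tgfb2 stayed near the filter with -0.14. Itgav, the partner of the beta 8 chain, rose by 1.73, and the alternative beta chain gene Itgb5 rose by 3.68. Furin, the protease that cleaves the TGF-beta precursor, rose by 2.69, and Mmp14, a membrane protease, by 6.14 from a spleen level of 1.09. Among carriers of latent TGF-beta, Ltbp4, Ltbp2 and Ltbp3 rose by 4.37, 3.56 and 3.46, and Nrros, the myeloid relative of GARP, rose by 1.15. The spleen levels of Ltbp4, Ltbp2, Ltbp3 and Tgfb3 were low, at 0.82, 0.59, 0.20 and 0.94. In the same tumor libraries fibroblast markers rose by a median of 5.27 and myeloid markers by 5.13. The part of those cells in these rises was not tested. Ltbp1 fell by 1.56, in the same direction under all 5 scalings. The small rise of Itgb3 (0.32) turned to -0.28 with equal library totals.

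Nrp1 (chr8:128358604-128503363, plus strand) encodes neuropilin 1, a semaphorin and VEGF co-receptor on thymus-derived Tregs. Its level in spleen libraries ran from 5.39 to 5.95 with a median of 5.77. In tumor libraries it was 5.67, 5.69 and 5.71 in WT mice and 5.75 in both KO libraries. All tumor values fell inside the spleen range, with an SD of 0.036 in tumor and 0.26 in spleen. The difference was 0.019 ± 0.11 (SE; 95% interval -0.22 to 0.25), with an adjusted p of 0.88 by limma, and it lay between -0.60 and 1.03 across the alternatives. A microRNA gene, Mir1903, lies on an Nrp1 exon of the same strand, and 0.533% of the stretches of 31 bases in Nrp1 transcripts are shared with other genes.

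Of 12 tested genes around neuropilin, 8 were called higher (43.1% of all tested genes) and 2 lower (35.9%), with a median difference of 0.99. Vegfa, a ligand, went from 0.90 ± 0.18 to 7.83 ± 0.30 (SD), and the kin receptor Nrp2 from 0.76 ± 0.12 to 5.65 ± 0.46 (SD). Of the semaphorin ligands, Sema3c rose by 2.43, Sema3a by 1.04 and Sema4a, a known partner of Treg neuropilin, by 0.94. The plexin co-receptors split, with Plxna1 higher by 2.59 and Plxnd1 by 2.03, and with Plxnb1 lower by 1.21 (-1.21) and Plxna3 lower by 0.83 (-0.83). The fall of Plxna3 turned to 0.18 with T-cell centring.

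Fgl2 (chr5:21372642-21378374, plus strand, within the span of Ccdc146 but sharing no exon with it) encodes fibrinogen-like protein 2, a secreted suppressor. Its level ran from 2.57 to 3.37 in spleen libraries with a median of 2.94. The tumor libraries stood at 7.19, 7.45 and 7.57 in WT mice and 7.39 and 7.59 in KO mice. No tumor library came near the spleen range. The difference was 4.48 ± 0.13 (SE; 95% interval 4.21 to 4.76), or 22.4-fold on the n + 1 scale, with an adjusted p of 2.19e-11 by limma, and it ranked 161 among the 13897 tested genes by size of rise. The receptor genes of FGL2 rose further, Fcgr2b from 1.06 ± 0.89 to 9.17 ± 0.26 and Fcgr3 from 2.81 ± 0.47 to 8.78 ± 0.21 (SD). Both are also genes of myeloid cells, whose markers rose by a median of 5.13. The part of those cells in these rises, and in that of Fgl2, was not tested. Fgl1, the kin ligand, fell by 0.84 from a spleen level of 1.15 and turned to 0.17 with T-cell centring.

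Klrg1 (chr6:122270596-122282882, minus strand) encodes an inhibitory lectin receptor. Its level ran from 2.43 to 3.64 in spleen libraries with a median of 3.16. The tumor values were 5.21, 5.58 and 5.93 in WT mice and 5.65 and 6.30 in KO mice. The groups did not overlap. The difference was 2.60 ± 0.23 (SE; 95% interval 2.10 to 3.09), or 6.05-fold on the n + 1 scale, with an adjusted p of 2.75e-07 by limma. KLRG1 is also carried by CD8 T and NK cells. Of the 9 tested markers of those cells, 5 were called higher in tumor libraries (43.1% of all tested genes), among them Cd8a by 3.99. Called lower (35.9%) was 1, the NK receptor gene Klrb1c by 1.39 (-1.39), and Ncr1, Eomes and Gzma did not pass the test. The cadherin ligand gene Cdh1 rose by 3.32 and Cdh4, low in both tissues, fell by 0.69 but turned to 0.32 with T-cell centring. The signal gene Inpp5d, encoding SHIP-1, differed by 0.26 and turned to -0.37 with equal library totals, and Ptpn11 did not pass the test.

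Areg (chr5:91139599-91148432, plus strand) encodes amphiregulin and showed the largest difference of the 9 genes. Its level in spleen libraries ran from 2.25 to 3.26 with a median of 2.68. Tumor libraries read 7.12, 7.80 and 7.91 in WT mice and 6.79 and 7.96 in KO mice. The KO libraries held both the lowest and the highest tumor value, and all 5 stood far above spleen. The difference was 4.77 ± 0.24 (SE; 95% interval 4.26 to 5.28), or 27.3-fold on the n + 1 scale, with an adjusted p of 1.44e-09 by limma, and it ranked 131 among the tested genes by size of rise.

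Of 9 tested genes around amphiregulin, 6 were called higher (43.1% of all tested genes) and none lower (35.9%), with a median difference of 0.94. Il1rl1, the IL-33 receptor gene, went from 2.84 ± 0.16 to 5.64 ± 0.51 (SD). Il18r1, the IL-18 receptor gene, differed by 0.38 with an adjusted p of 0.12 by limma. Adam17, the sheddase that frees amphiregulin from the membrane, rose by 1.09. Of its kin ligands, Hbegf rose by 3.20 and Btc by 0.94, Tgfa did not pass the test, and Ereg and Epgn are not listed. Of the receptor genes, Egfr and Erbb2 had low values in both tissues but were called higher. Egfr went from 1.09 ± 0.080 to 1.71 ± 0.40 and Erbb2 from 0.57 ± 0.31 to 1.90 ± 0.59 (SD). Erbb3 did not pass the test and Erbb4 is not listed.

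Tnfsf11 (chr14:78277445-78308043, minus strand) encodes RANKL. Its level ran from 3.88 to 5.02 in spleen libraries with a median of 4.39. In tumor libraries it was 4.94, 5.29 and 5.33 in WT mice and 4.01 and 4.86 in KO mice. So 4 of 5 tumor libraries lay above the spleen median, and replicate 2 of the KO tumors lay near the bottom of the spleen range. The difference was 0.48 ± 0.25 (SE; 95% interval -0.053 to 1.01), with an adjusted p of 0.090 by limma and 0.13 by an exact two-sided permutation test. It passed the limma test without replicate 2 of the KO tumors (0.70, adjusted p = 0.0071) and without replicate 3 of the WT spleens (0.60, adjusted p = 0.035). Its receptor gene Tnfrsf11a rose by 2.49, the signal gene Traf6 did not pass the test, and the decoy receptor gene Tnfrsf11b is not listed.

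**Figure D2:**
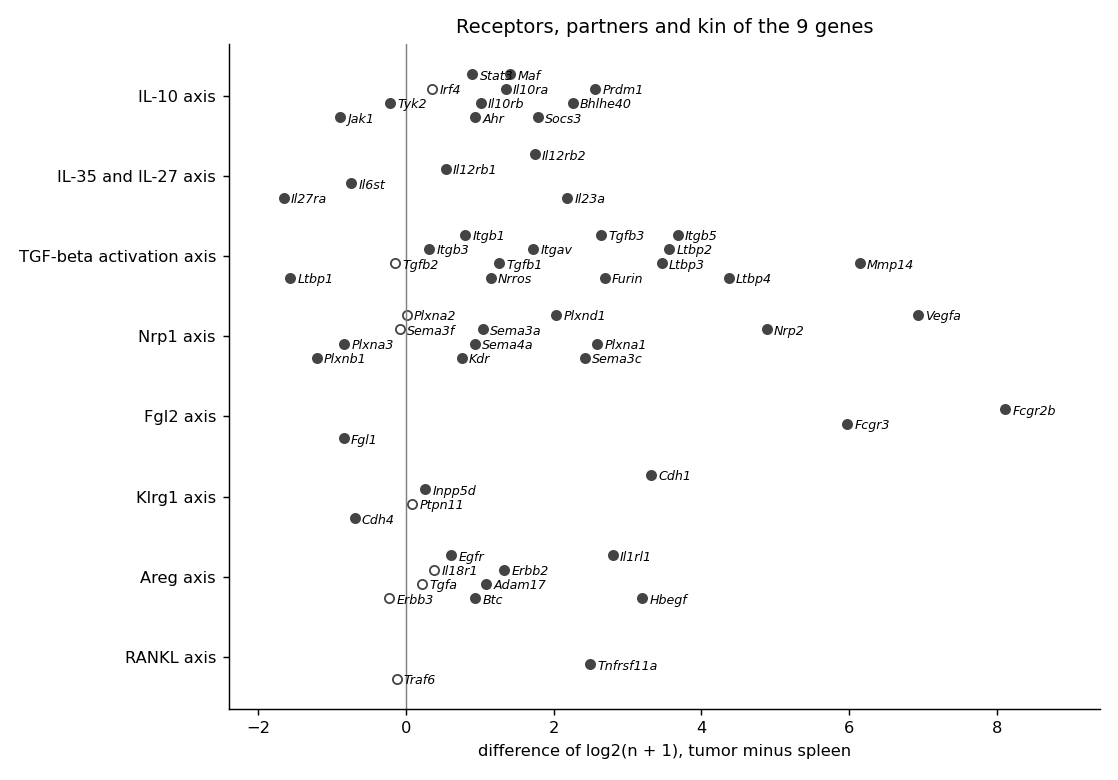
Tumor minus spleen difference of log2(n + 1) (x axis) for the 60 tested receptors, partners and kin of the 9 genes, grouped by axis (y axis); filled points passed an adjusted p of 0.05 by limma and open points did not. Most filled points lie to the right of 0, with Fcgr2b, Vegfa and Mmp14 farthest out.

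Over all of these axes, 42 of 60 tested genes were called higher and 9 lower, with a median difference of 1.06. Among all tested genes 43.1% were called higher and 35.9% lower, with a median of 0.082, which also applies to the lists below. Of the 42 called higher, 39 kept their direction under all 5 scalings, as did 3 of the 9 called lower, Il27ra, Ltbp1 and Plxnb1. The part of myeloid, dendritic and other cells in the rises of these genes and of the 9 members was not tested. Other suppressive molecules of Tregs were also mostly higher on the deposited scale. Of 15 tested, 13 were called higher and 1 lower, with a median of 1.98. The largest rises were those of Gzmb, encoding granzyme B (5.43), Havcr2, encoding TIM-3 (4.91), and Lgals1, encoding galectin 1 (3.90), and Nt5e, encoding the ectonucleotidase CD73, fell by 0.76 but turned to 0.25 with T-cell centring. Of 14 genes known from tissue Tregs, 12 were called higher and 1 lower, with a median of 1.52. Among them Nfil3 rose by 3.54, Tnfrsf9, encoding 4-1BB, by 3.33 and Il1rl1 by 2.80. The gene called lower was Gata3 (-0.50), which turned to 0.51 with T-cell centring.

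Because 16 of the 18 T-cell lineage markers were lower in tumor libraries, each gene was also expressed relative to the mean of the 18 in the same library. In this difference a scaling factor common to a library largely cancels. That reference itself was 1.01 lower in tumor libraries (from 7.65 to 6.64), and its genes moved unevenly, from -3.72 for Tcf7 to 0.012 for Cd2. Whether the number or the state of the T cells lowered the reference was not tested. On this measure all 9 genes were higher in TI-Tregs, but so were most genes, since with libraries centred on these markers limma called 76.6% of all tested genes higher and the median difference was 1.09. The values of Itgb8, Nrp1 and Lrrc32 lay near or below that median. Areg was higher by 5.78, Fgl2 by 5.50, Il10 by 3.96, Klrg1 by 3.61, Ebi3 by 2.95, Tnfsf11 by 1.49, Itgb8 by 1.17 and Nrp1 by 1.03, with no overlap between tissues, and each had a p of 0.0043 by an exact two-sided permutation test. Lrrc32 was higher by 0.47 (p = 0.013 by the same exact test), with overlap. The choice of reference mattered for the genes with small differences. Against Foxp3 the difference of Lrrc32 was 0.31 (exact p = 0.13), and against the mean of 9 Treg identity markers it was -0.26 (exact p = 0.022). Against Cd3e alone it was 0.078 (exact p = 0.62). Against the same 9 markers that of Nrp1 was 0.30 (exact p = 0.13), that of Tnfsf11 0.76 (exact p = 0.065) and that of Itgb8 0.45 (exact p = 0.026). The differences of Areg, Fgl2, Il10, Klrg1 and Ebi3 stayed at 2.22 or more with each of these references.

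**Figure D3:**
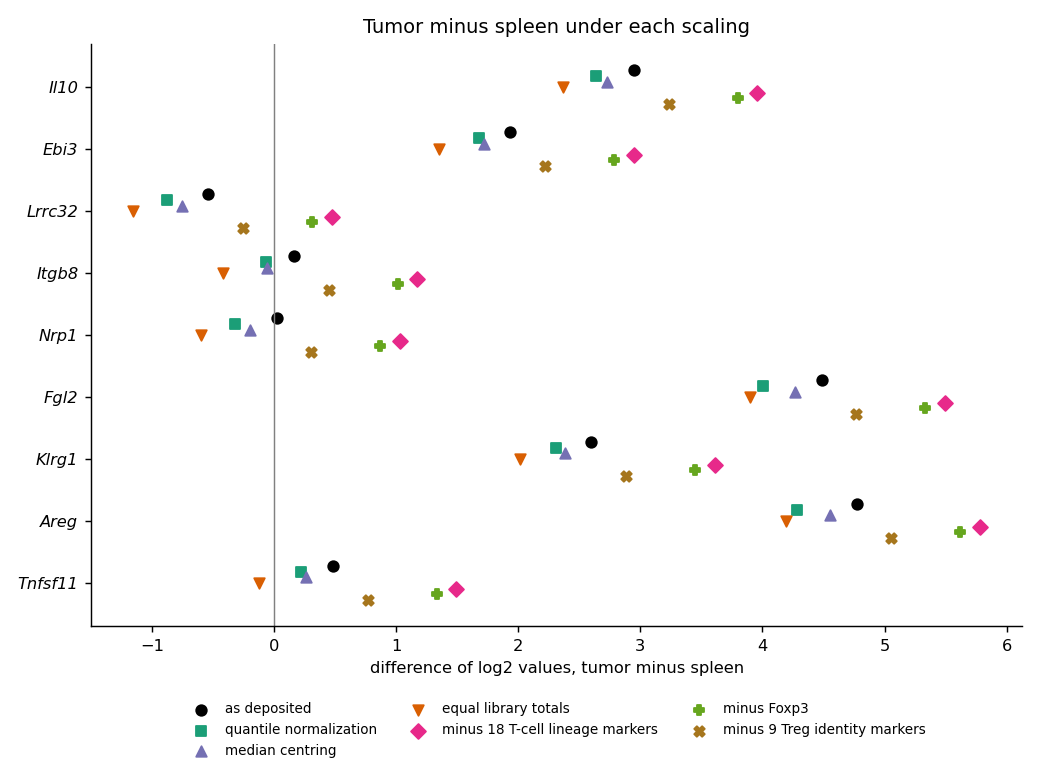
Tumor minus spleen difference of log2 values (x axis) of the 9 genes (y axis) as deposited, with 3 other scalings of the libraries, and relative to 3 references within a library. Areg, Fgl2, Il10, Klrg1 and Ebi3 lie right of 0 under all 7, and Lrrc32, Itgb8, Nrp1 and Tnfsf11 fall on both sides of 0.

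Within the spleen, the extremes of most of the 9 genes fell in a pair of WT libraries. Replicate 3 of the WT spleens held the highest value of the 6 spleen libraries for 8 of the 9 genes, all but Lrrc32, where 17.5% of tested genes were highest there. Replicate 2 of the WT spleens held the lowest value for Il10, Ebi3, Nrp1, Areg and Tnfsf11, where 19.8% of tested genes were lowest. Lrrc32 went the other way and was highest, at 6.09, in replicate 2. The lowest values of Lrrc32, Fgl2 and Klrg1 lay in replicate 3 of the KO spleens and that of Itgb8 in replicate 2 of the KO spleens. Other lists shared these extremes in part. Of 14 tissue Treg genes, 9 were highest in replicate 3 of the WT spleens and 7 lowest in replicate 2, and of 18 T-cell lineage markers 2 and 1 were. Of 17 myeloid markers 1 was highest in replicate 3 and 8 were lowest in replicate 2, and of 7 erythroid and platelet markers 0 and 5 were. The summed myeloid level was 8.42 in replicate 3 and 8.30 in replicate 2, against 8.47 to 9.22 in the 4 spleen libraries other than these, and the part of these cells in the pattern was not tested. Without replicate 3 of the WT spleens 7 of the 9 genes were called between tissues, and without replicate 2 the count was 6.

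The second question was whether the tissue difference held in each genotype. In WT mice 7 of 9 genes were called, 6 higher and 1 lower, where 70.5% of tested genes were called (39.2% higher and 31.3% lower). In KO mice 6 of 9 were called, all higher, where 65.7% of tested genes were called (36.2% higher and 29.5% lower). Areg, Fgl2, Il10, Klrg1 and Ebi3 were called in both, by 4.89 and 4.61 for Areg, 4.33 and 4.66 for Fgl2, 2.74 and 3.29 for Il10, 2.39 and 2.88 for Klrg1 and 1.92 and 1.95 for Ebi3 in WT and KO mice. With Bonferroni correction 3 of 9 genes were called in each genotype.

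The genes with small differences were called in 1 genotype at most. Lrrc32 differed by -0.71 in WT (adjusted p = 0.0051 by limma) and by -0.28 in KO mice (adjusted p = 0.24), and without replicate 1 of the KO tumors the latter was -0.62 with an adjusted p of 0.023. It was also called lower with quantile normalization (-0.63) and with equal library totals (-0.91), but higher with T-cell centring (0.75, adjusted p = 0.0071 by limma), and without replicate 2 of the KO tumors it was 0.053. Tnfsf11 differed by 0.75 in WT (adjusted p = 0.043 by limma) and by 0.064 in KO mice (adjusted p = 0.88). The Tnfsf11 call in WT mice was lost under 9 alternatives, among them the other 3 scalings without a marker reference and the removal of replicate 1 or 2 of the WT spleens, of replicate 2 or 3 of the WT tumors or of replicate 3 of the KO spleens (adjusted p between 0.057 and 0.17 in these removals). Itgb8 differed by -0.13 in WT (adjusted p = 0.57 by limma) and by 0.58 in KO mice (adjusted p = 0.042). The Itgb8 call in KO mice was lost in the removal of 7 single libraries (adjusted p between 0.050 and 0.15), namely replicate 1 of the WT spleens, replicates 2 and 3 of the KO spleens, replicates 2 and 3 of the WT tumors and either KO tumor library. It was also lost with quantile normalization (0.36), median centring (0.37) and Bonferroni correction, and with equal library totals the difference was -0.019.

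A call in 1 genotype alone does not show a difference between genotypes, so the difference itself was tested. By the interaction of genotype with tissue in limma, 0 of 9 genes and 0.0% of all tested genes were called. At an unadjusted p under 0.05 1 of the 9 genes passed, Itgb8, with 0.71 ± 0.30 (SE; unadjusted p = 0.039, adjusted p = 0.9997), against 2.76% of tested genes. For Tnfsf11 the interaction was -0.68 ± 0.45 (SE; adjusted p = 0.9997).

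**Figure D4:**
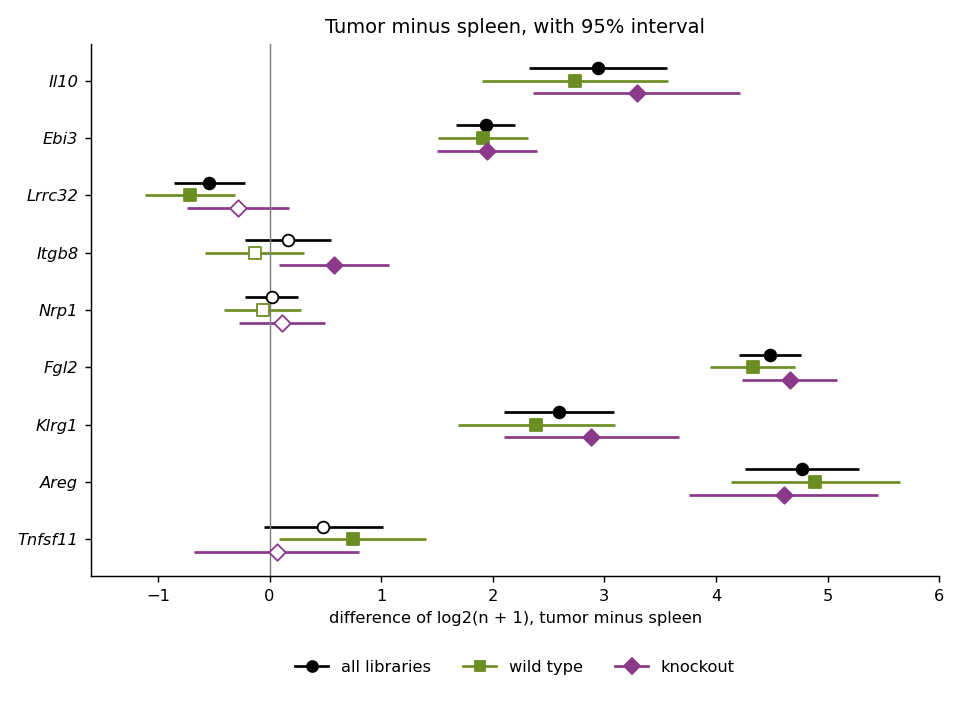
Tumor minus spleen difference of log2(n + 1) (x axis) of the 9 genes (y axis) with the 95% interval of the limma fit, over all 11 libraries and within WT and KO mice; filled symbols passed an adjusted p of 0.05. The intervals of Areg, Fgl2, Il10, Klrg1 and Ebi3 lie right of 0 in both genotypes, and those of Lrrc32, Itgb8 and Tnfsf11 clear 0 in 1 genotype each, with the sign for Lrrc32 turning under T-cell centring.

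The third question was whether these genes differed between KO and WT mice within a tissue. By the labels, the Cd177 deletion and the FOXP3-CreYFP allele come together in KO mice, so their effects cannot be told apart. In spleen, 0 of 9 genes and 0.0% of tested genes were called by limma, and none of the 9 passed at an unadjusted p under 0.05 (2.02% of tested genes did). The spleen libraries of the genotypes overlapped for every one of the 9 genes, and the farthest apart was Fgl2 with -0.25 ± 0.17 (SE; 95% interval -0.63 to 0.13). An exact permutation test of 3 against 3 libraries cannot go below 0.1.

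In tumor, 0 of 9 genes were called by limma, where 0.0072% of tested genes, a single gene, were. At an unadjusted p under 0.05 2 of the 9 genes passed, against 4.56% of tested genes. These were Itgb8, higher in KO by 0.60 ± 0.22 (SE; unadjusted p = 0.023, adjusted p = 0.9997), and Tnfsf11, lower in KO by 0.75 (-0.75 ± 0.33, SE; unadjusted p = 0.046, adjusted p = 0.9997). KO and WT tumor libraries did not overlap for 4 of 9 genes, Il10, Itgb8, Nrp1 and Tnfsf11, where 13.6% of tested genes showed no overlap. The difference was 0.67 ± 0.42 for Il10 and 0.060 ± 0.17 for Nrp1 (SE), and for Lrrc32, whose libraries overlapped, it was 0.43 ± 0.20 (SE; 95% interval -0.028 to 0.88). An exact two-sided permutation test of 3 against 2 libraries, with the smaller tail doubled, cannot go below 0.2, which each of the 4 genes gave.

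Means of other markers in the same tumor libraries are given beside these values, although none passed the limma test between genotypes. Of 9 Treg identity markers, 8 had a higher mean in KO tumors, and 3 did not overlap, with a summed level of 10.37 and 10.80 in the KO libraries against 9.995 to 10.59 in WT. Foxp3 was 0.83 higher, Ikzf2, encoding the Treg factor Helios, 0.63 and Il2ra, encoding CD25, 0.56, with an adjusted p of 0.9997 by limma for each. Of 9 CD8 T and NK markers, 5 lay lower in KO without overlap (adjusted p between 0.88 and 0.9997 by limma), where 13.6% of tested genes showed no overlap, with a summed level of 6.88 and 7.97 against 8.23 to 8.61 in WT, among them Cd8a (-1.06) and Cd8b1 (-1.12). The 7 tested B-cell markers summed to 6.33 and 6.41 in KO against 5.19 to 5.91 in WT. Such a sum weighs genes with high values most, and only 1 of the 7 was higher in KO without overlap. Ighm was 1.06 higher in KO (adjusted p = 0.74 by limma), and Cd22 went the other way (-0.50). The myeloid markers overlapped, with 14.03 and 14.24 against 13.79 to 14.42. The part of these markers in the differences of Il10, Itgb8 and Tnfsf11 was not tested.

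**Figure D5:**
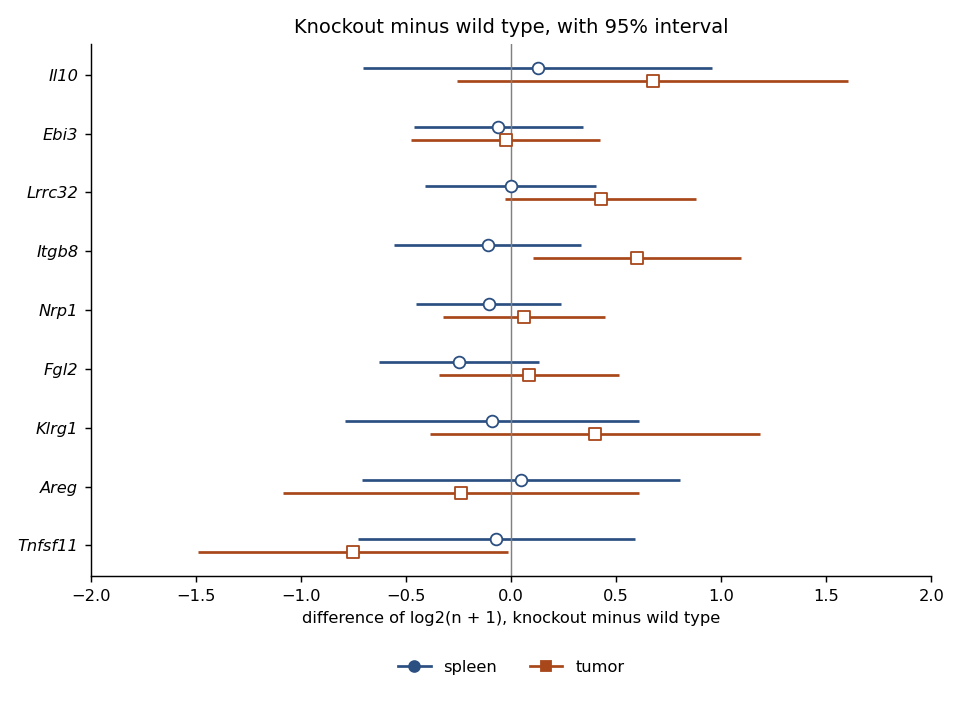
Knockout minus wild-type difference of log2(n + 1) (x axis) of the 9 genes (y axis) in spleen and in tumor, with the 95% interval of the limma fit; all symbols are open because no difference passed an adjusted p of 0.05. The tumor intervals of Itgb8 and Tnfsf11 lie on either side of 0 without reaching it, and the other 16 intervals hold 0.

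Genes with a similar course over the 11 libraries were found by the root mean square difference of log2 values after each gene was centred on its own mean, which is smaller the more alike a pair is. The 3 nearest to Areg were Hilpda (0.312), Fabp5 (0.328) and Fosl2 (0.344), and those to Fgl2 were Cd93 (0.204), Cstb (0.215) and Adam9 (0.238). For Klrg1 they were Prdm1 (0.222), Tmem176b (0.330) and Cd200r4 (0.336), and for Il10 they were Alcam (0.319), Mgarp (0.364) and Cd83 (0.380). Ebi3 lay nearest to Plscr1 (0.0721), Zc3h12c (0.125) and Map2k3 (0.133). The genes with small differences lay nearest to genes with small differences, Lrrc32 to Ssbp3, Stap1 and Ulk3, Itgb8 to Hacd3, Slc26a2 and Smco4, Nrp1 to Ahi1, Smco4 and Tshz2, and Tnfsf11 to Wdfy1, Rab39b and Traip. Among the members the nearest pairs were Itgb8 with Nrp1 (0.215), Lrrc32 with Nrp1 (0.427), Nrp1 with Tnfsf11 (0.431) and Fgl2 with Areg (0.433), and all of these distances are descriptions of libraries that share tissue and scaling.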

How the data were processed

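RNA from sorted TI-Tregs and spleen Tregs was sequenced in 11 libraries, and the labels' tissue and genotype set the groups. After ribosomal RNA depletion and single-end sequencing, the authors ran kallisto against mm10 and passed its estimated counts to sleuth 0.30.0 (tools as named in the submitters' processing notes). They summed n by gene symbol and deposited log2(n + 1) values. For kallisto's version and annotation, the sources used here give nothing. Because n has no stated scaling, no count model was used, and the spread between libraries alone limits the precision. The read depth is given only approximately in the study's methods.

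A minimum mean log2(n + 1) of 0.5 removed 707 genes. limma 3.58.1 in R 4.3.3 (lmFit, eBayes with a mean-variance trend) compared 6 spleen with 5 tumor libraries, and the other comparisons came from a fit of 4 group means. P-values were adjusted by Benjamini-Hochberg over 13897 genes, and calls used 0.05. Exact two-sided permutation tests used scipy 1.17.1, which doubles the smaller tail. The fit was tested on simulated data. All 9 members are named. Of each list, the partners, receptors and kin, and at most 3 genes per direction, are given with values, and for each member the 3 most alike genes are named. Regulators, signal genes and further axis genes with values beyond these were chosen after their values were seen. The members and lists were chosen with earlier results of these data known. Positions and shared stretches of 31 bases came from GENCODE M21, and promoters from RefSeq.

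Alternatives changed the scaling, the variance model, the pseudocount (0.1 or 5), the low-value filter (none or 2), the correction, the covariates, the libraries and the within-library reference. The reference Cd3e was added after the data had been seen.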

Additional observations from a re-analysis of the deposited data

How the results depend on the processing

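Calls of Areg, Fgl2, Il10, Klrg1 and Ebi3 between tissues held under all 23 alternatives over all libraries. The count of 6 genes lay between 5 and 9, and between 6 and 7 with 1 library left out. With Bonferroni correction 33 axis genes were called in place of 51, and 3 members in WT and 3 in KO mice in place of 7 and 6. With 1 library left out, between 51 and 53 axis genes, 6 and 7 members in WT mice and 5 and 6 in KO mice were called, and 0 in the interaction and between genotypes. All 9 within-library results held with each library left out.

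These directions turned, and beyond the scaling itself the cause was not tested. With quantile normalization, median centring and equal library totals, Itgb8 was -0.066, -0.056 and -0.42, and Nrp1 was -0.32, -0.20 and -0.60, and Tnfsf11 was -0.12 with equal totals. In KO mice Nrp1 was -0.21, -0.10 and -0.52, Tnfsf11 -0.18, -0.14 and -0.54, and Itgb8 -0.019 with equal totals. With T-cell centring Lrrc32 was 0.47 over all libraries, 0.28 in WT and 0.75 in KO mice, and in WT mice Itgb8 was 0.86 and Nrp1 0.93. Leaving out 1 library gave Nrp1 between -0.042 and 0.069, between -0.24 and 0.039 in WT and between -0.014 and 0.23 in KO mice. It gave Itgb8 between -0.34 and 0.044 in WT, Lrrc32 between -0.62 and 0.053 in KO and Tnfsf11 between -0.36 and 0.49 in KO mice. Relative to the Treg identity markers Lrrc32 was -0.26.

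Spleens and tumors came from the same mice, but nothing says that a replicate number marks a mouse, so numbers were not used as pairs. Deviations of same-numbered spleen and tumor libraries from their group means correlated between -0.13 and 0.038 over genes. With so few libraries per group, these correlations cannot show whether libraries share a mouse. With the replicate block 6 members and 50 axis genes were called between tissues, 7 members in WT and 6 in KO mice, and 0 in each genotype comparison.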
